A study of Mus musculus with 16 samples.

Results

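The Wnt signalling genes described here are the 44 entries, among the 23420 of the deposited count table, whose symbol names a Wnt ligand, a Frizzled (Fzd) receptor, a secreted frizzled-related protein (Sfrp), a Dickkopf protein (Dkk), an R-spondin (Rspo) or one of Lgr4, Lgr5 and Lgr6. They were taken by symbol alone, with no use of measured values. There were 19 Wnt ligands, 10 Fzd receptors, 4 Sfrp, 4 Dkk, 4 R-spondins and 3 Lgr receptors, and the mouse GENCODE annotation lists all 44 as protein coding.

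The study sequenced RNA of mouse thymic epithelial cells, which form the stroma that selects developing T cells, in 3 sorted populations. Cortical cells (cTEC) were sorted as CD45-negative, EpCAM-positive, Ly51-positive and UEA1-negative. Medullary cells were sorted as Ly51-negative and UEA1-positive, and the labels divide them into cells low (mTEClo) and high (mTEChi) in MHC class II. Each population came from wild-type mice (WT, psmb11 +/+) and from mice lacking Psmb11 (KO, psmb11 -/-), the gene of the thymoproteasome subunit beta5t, with 2 cTEC, 3 mTEClo and 3 mTEChi libraries per genotype and 16 in all. All 6 groups carry the strain label "C57BL/6-derived BAC" and no treatment is given. The sample labels state 6 to 8 weeks of age and the series description 11 thymi, whereas the extraction protocol states an age of 7 days and 14 mice. The number of animals behind each library, and whether libraries came from separate animals, is not stated. P-values therefore reflect how far libraries of a group lie apart, and part of that may be technical. The kit does not mark the strand of the RNA.

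Total gene counts ranged from 64753610 to 146707262 per library, so 3 counts correspond to at most 0.0461 CPM, the unit of counts relative to library size that is used below after TMM scaling between libraries. Psmb11 stood at 146 to 174 CPM in WT cTEC and at 0 to 2.10 CPM in KO cTEC. Prss16, a protease of cortical cells, stood at 1031 to 1268 CPM in WT cTEC and at no more than 72.8 CPM in the WT medullary libraries. Aire, the regulator that mature medullary cells use to transcribe tissue-restricted genes, stood at 1446 to 1625 CPM in WT mTEChi and at 8.16 to 17.9 CPM in WT mTEClo. The 2 KO cTEC libraries held more Aire (48.4 and 107 CPM) than the 2 WT cTEC libraries (11.2 and 14 CPM), and they resembled each other less (Pearson r = 0.907 of log levels across genes, against 0.969 or more between libraries of any other group). Ccl21a, a chemokine of medullary cells with near-identical gene copies, had no count in any library.

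Wnt proteins are secreted, lipid-bearing ligands that bind Fzd receptors together with the coreceptors Lrp5 and Lrp6, which stabilises beta-catenin and lets it activate genes with Tcf and Lef factors. Other Wnt signals run through Fzd, Ror and Ryk receptors without beta-catenin. Sfrp proteins bind Wnts outside the cell, Dkk proteins bind the coreceptors, and R-spondins, through Lgr receptors, remove the ubiquitin ligases Znrf3 and Rnf43 that take Fzd receptors off the surface. In the thymus, Wnt4 is known for sustaining the epithelium and its regulator Foxn1.

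The same few genes held the highest levels per length within a population in both genotypes. In deposited RPKM (reads per kilobase of gene, scaled to depth), the antagonist Sfrp1 ranked first in all 6 groups, with 79.9 ± 8.86 in WT cTEC (SD, n = 2), 130 ± 9.84 in WT mTEClo and 49.8 ± 1.08 in WT mTEChi (SD, n = 3 each). In WT cTEC it was followed by Wnt4 (66.5 ± 2.42 RPKM), Lgr4 (38.7 ± 2.94 RPKM), Fzd7 (33.7 ± 0.350 RPKM) and Fzd6 (24.1 ± 1.04 RPKM). Lgr4 and Fzd7 differed there by about their spread. In WT mTEClo the order was Wnt4 (46.3 ± 1.06 RPKM), Fzd7 (38.0 ± 2.44 RPKM), Lgr4 (31.6 ± 0.775 RPKM) and Fzd2 (30.9 ± 1.67 RPKM), of which Lgr4 and Fzd2 lay within their spread of each other. WT mTEChi had a partly different set behind Sfrp1, with Wnt10b (37.0 ± 0.785 RPKM), Fzd6 (28.9 ± 1.10 RPKM), Wnt10a (24.3 ± 1.62 RPKM) and Fzd1 (15.7 ± 0.278 RPKM). Thus 3 of the 4 genes behind Sfrp1 in WT mTEClo (Wnt4, Fzd7 and Lgr4) also stood there in WT cTEC, and none of them in WT mTEChi. Wnt4 came next in WT mTEChi at 14.8 ± 1.28 RPKM, within its spread of Fzd1, so its place outside that set is not clear. Fzd6 stood in the sets of both WT cTEC and WT mTEChi.

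**Figure D1:**
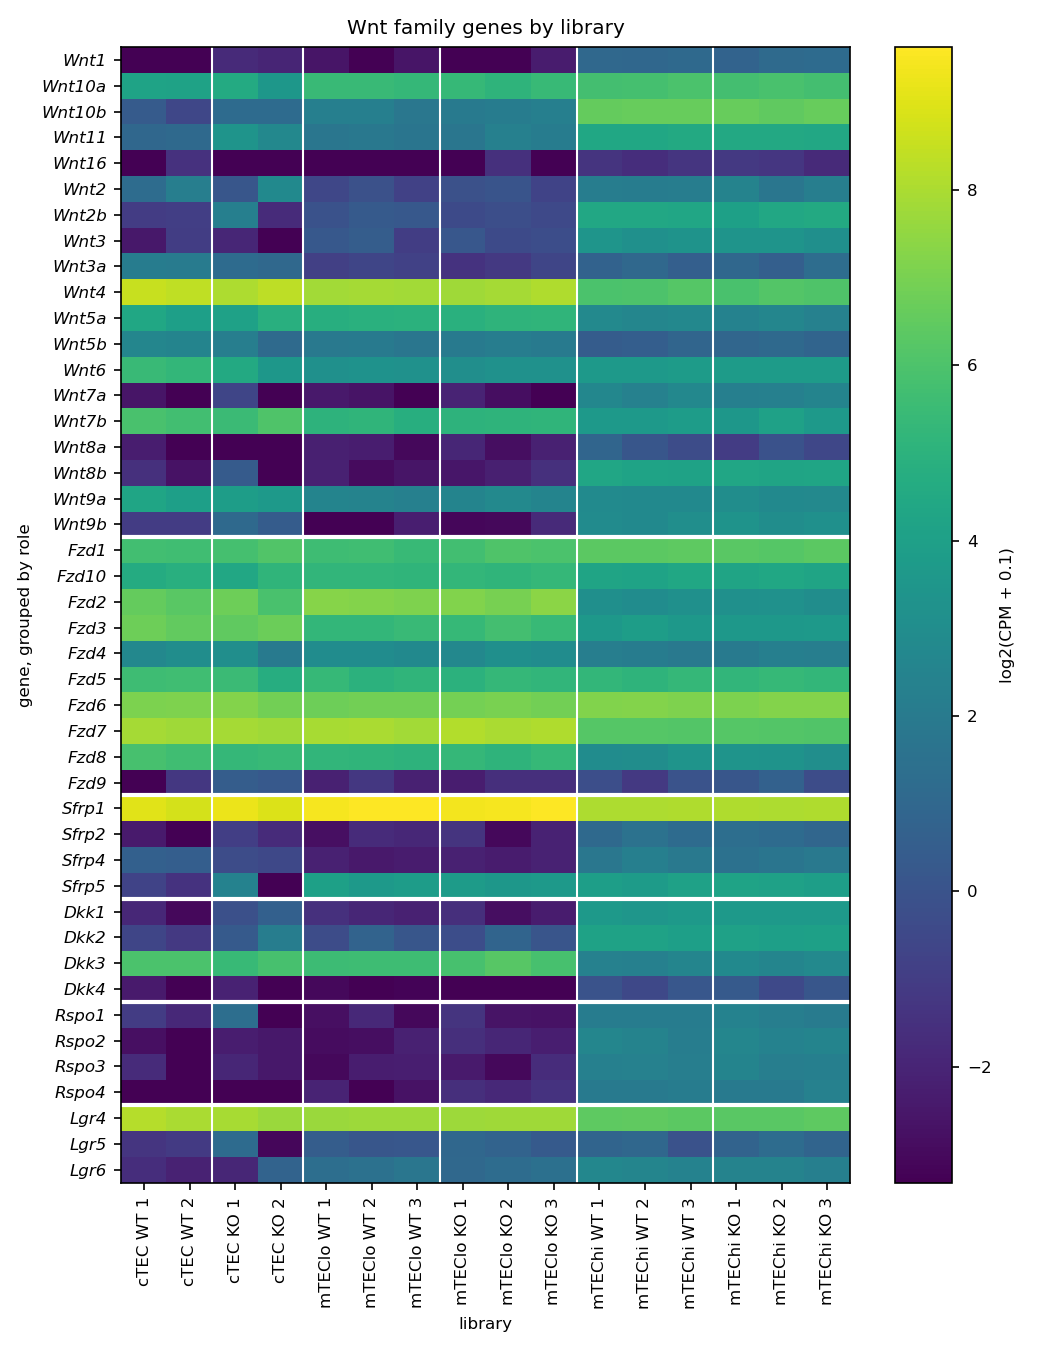
Level of each of the 44 genes (vertical axis, grouped by role between thick white lines) in each of the 16 libraries (horizontal axis, thin white lines between groups), as log2(CPM + 0.1) on the colour scale. The 6 mTEChi libraries differ from the other 10 in most rows, among them all 4 R-spondins, whereas KO and WT libraries of a medullary population look alike.

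Within the medulla, WT mTEChi differed from WT mTEClo in nearly all of these genes. Of 44 tested, 28 were higher in mTEChi and 13 lower (edgeR quasi-likelihood test, Benjamini-Hochberg adjusted p under 0.05 over all genes tested), and 3 did not pass, namely Fzd5, Sfrp5 and Lgr5. Calls were common across the transcriptome, with 43% of all 19256 genes tested higher and 37.9% lower. Calls of at least 4-fold were 20 higher and 4 lower among the 44, against 23.9% and 3.75% of all genes. The median log2 difference was 1.38 over the 44 genes and 0.06 over all genes tested. With library totals in place of TMM scaling the median of all genes moved to 0.29, and the 44 genes then gave 30 higher and 13 lower calls, none with a changed direction.

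Of the 19 Wnt ligands, 15 were higher in WT mTEChi and 4 lower. Wnt10b, a ligand of the beta-catenin branch, had 93.2, 98.6 and 97.6 CPM in WT mTEChi and 4.65, 4.71 and 3.47 CPM in WT mTEClo. Every mTEChi library exceeded every mTEClo library, and the fold was 22.3 (log2 4.48, SE 0.11, adjusted p = 1.93e-11 by edgeR). Wnt8b, which is best known from the developing forebrain, had 20.5, 18.4 and 17.4 CPM in WT mTEChi against 0.132, 0.0309 and 0.0656 CPM in WT mTEClo (log2 7.92, SE 0.25). The mTEClo values were close to the 3-count floor, and no mTEClo library reached 1 CPM. Wnt2b had 21.5, 21.9 and 19.8 CPM against 0.857, 1.18 and 1.08 CPM, a 20.0-fold difference. Wnt11, a ligand that often acts without beta-catenin, had 20.9, 20.6 and 23.2 CPM against 3.24, 3.60 and 3.17 CPM, a 6.40-fold difference. For both genes the groups were far apart relative to the spread of their libraries.

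Apart from Wnt16, the other ligands that were higher in WT mTEChi ranged from 1.31-fold for Wnt9a (7.01 against 5.31 CPM) to 202-fold for Wnt9b (7.56 against 0.0364 CPM). Wnt3, Wnt7a and Wnt9b had means of 5 CPM or more in WT mTEChi and means under 1 CPM in WT mTEClo. Wnt1, Wnt2, Wnt3a and Wnt8a were low in both groups, with 4.32 CPM or less. Wnt16 had no count in the 3 WT mTEClo libraries and 81 counts over the 3 WT mTEChi libraries, which is at least 24.5-fold higher when 3 counts summed over the mTEClo libraries are taken as the floor. Wnt6 and Wnt10a differed by 1.40-fold and 1.34-fold. The call of Wnt9a was lost without mTEClo WT replicate 3, and that of Wnt10a in a fit of all 16 libraries with a shared dispersion.

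Wnt4, Wnt5a, Wnt5b and Wnt7b went the other way. Wnt4 had 63.3, 64.6 and 74.7 CPM in WT mTEChi and 232, 237 and 231 CPM in WT mTEClo, 3.49-fold lower in mTEChi (log2 -1.80, SE 0.07). Wnt5a, the classic ligand of the branch without beta-catenin, had 6.72, 6.01 and 6.46 CPM against 28.1, 29.3 and 30.5 CPM (log2 -2.21, SE 0.09). No mTEChi library reached the level of an mTEClo library in either gene. Wnt7b was 2.55-fold lower in mTEChi (12.9 against 32.3 CPM) and Wnt5b 2.49-fold lower (1.47 against 3.58 CPM).

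**Figure D2:**
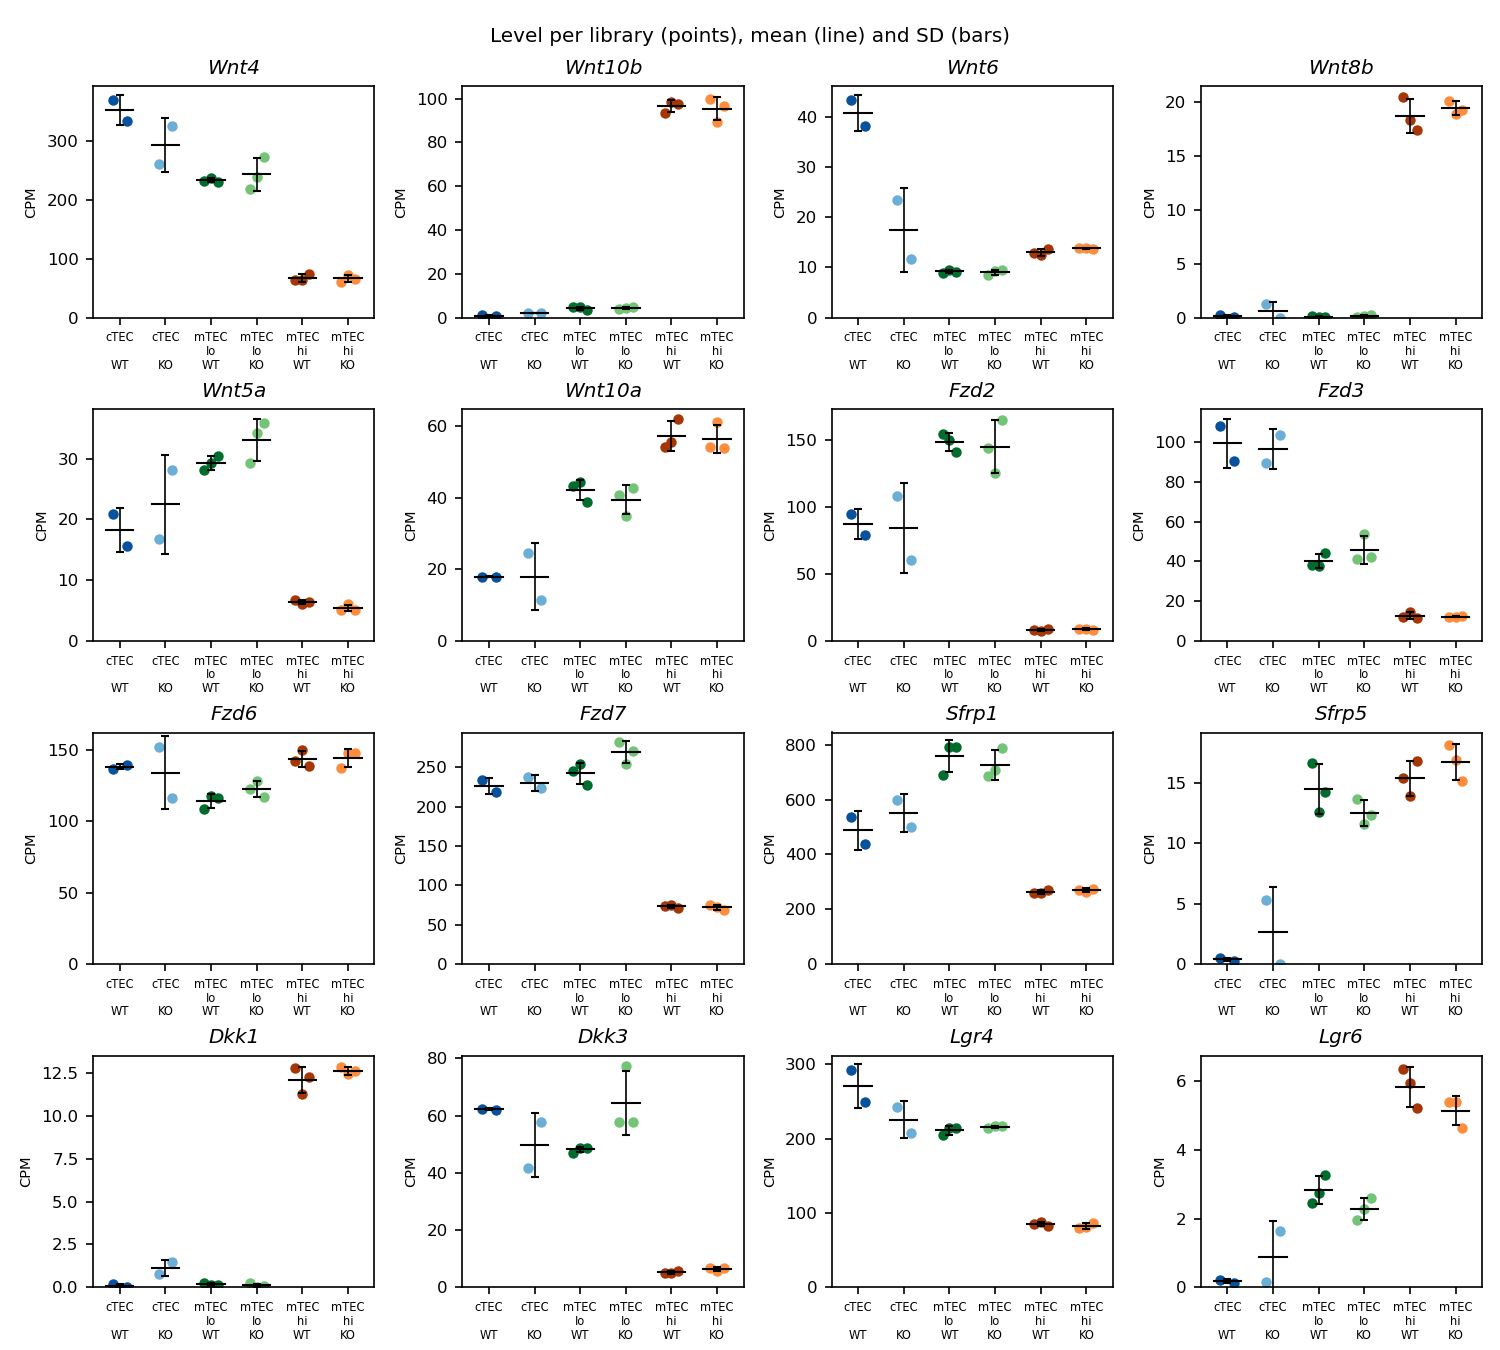
CPM (vertical axis, starting at 0) of 16 of the genes in each library (points) by group (horizontal axis), with the group mean as a line and the SD as bars. Wnt10b, Wnt8b and Dkk1 are high in the 6 mTEChi libraries alone, Fzd2, Fzd7, Sfrp1, Dkk3 and Lgr4 are lowest there, and Wnt6 is highest in the 2 WT cTEC libraries.

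Of the 10 Frizzled receptors, which bind the ligands, 3 were higher and 6 lower in WT mTEChi, beside 43% and 37.9% of all genes. Fzd2 had 8.52, 7.67 and 9.07 CPM in WT mTEChi and 155, 150 and 141 CPM in WT mTEClo, 17.9-fold lower in mTEChi (log2 -4.17, SE 0.08, adjusted p = 5.91e-12 by edgeR). Fzd7, whose level per length was the highest of the receptors in mTEClo, had 73.8, 75.3 and 70.7 CPM against 245, 254 and 228 CPM (log2 -1.74, SE 0.07). Neither gene had overlapping groups. Fzd8 was 4.04-fold lower (8.81 against 35.1 CPM), Fzd3, a receptor of planar cell polarity, 3.17-fold lower (12.7 against 40.1 CPM), Fzd10 1.90-fold lower (19.4 against 36.4 CPM) and Fzd4 1.82-fold lower (4.16 against 7.47 CPM). Fzd1 was 1.72-fold higher in mTEChi (83.0 against 47.7 CPM) and Fzd6, the other polarity receptor, 1.25-fold higher (144 against 114 CPM). Fzd9 was higher but stayed under 1 CPM, and its call was lost in the fit of all 16 libraries. Fzd5 had 37.2 and 36.1 CPM (log2 0.03, SE 0.09). It did not pass the test under TMM scaling, but with library totals Fzd5 and Sfrp5 were both called higher in WT mTEChi.

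All 4 R-spondins were higher in WT mTEChi, whereas their receptors split. Rspo2 had 6.00, 5.47 and 4.42 CPM in WT mTEChi and 0.0330, 0.0412 and 0.131 CPM in WT mTEClo, and Rspo1, Rspo3 and Rspo4 had similar means of 4.27, 4.81 and 4.01 CPM against 0.0838, 0.0781 and 0.0659 CPM. The mTEClo means of all 4 thus lay near the floor. Lgr4, the receptor with the highest level per length of the 3 in every group, had 85.5, 88.0 and 83.1 CPM in WT mTEChi and 204, 214 and 215 CPM in WT mTEClo (log2 -1.32, SE 0.05). Lgr6 was 2.05-fold higher in mTEChi (5.82 against 2.82 CPM), a call that the fit of all 16 libraries lost. Lgr5, the stem cell marker of the intestine, was low in both (1.5 and 1.13 CPM, log2 0.40, SE 0.33).

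The antagonists also split. Sfrp1 had 259, 260 and 271 CPM in WT mTEChi and 690, 792 and 792 CPM in WT mTEClo, 2.91-fold lower in mTEChi (log2 -1.54, SE 0.06). Sfrp2 and Sfrp4 were higher in mTEChi, with 2.36 against 0.142 CPM and 3.89 against 0.104 CPM, and Sfrp5 stood at 15.4 and 14.5 CPM (log2 0.07, SE 0.12). Dkk1, an inhibitor that beta-catenin itself can induce, had 12.7, 11.3 and 12.2 CPM in WT mTEChi and 0.253, 0.165 and 0.131 CPM in WT mTEClo (log2 6.02, SE 0.22). Dkk2 had a mean of 17.0 against 1.12 CPM, 14.9-fold higher. Dkk4 had 3 counts over the 3 WT mTEClo libraries and had 0.605 to 1.06 CPM in WT mTEChi. Dkk3, a divergent Dkk that does not act on the coreceptors in the same way, had 4.99, 4.93 and 5.83 CPM in WT mTEChi and 47.0, 48.7 and 48.8 CPM in WT mTEClo, 9.32-fold lower. Sfrp1 and Dkk3, with 130 and 10.9 RPKM the antagonists of highest level per length in WT mTEClo, were thus the 2 that were lower in mTEChi.

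The KO libraries, which share none with the WT comparison, gave nearly the same picture. KO mTEChi against KO mTEClo called 27 genes higher and 13 lower, beside 42.2% and 36.2% of all genes tested. Of the 44 genes, 39 were called in the same direction in both genotypes (26 higher, 13 lower) and 0 in opposite directions, beside 75% of all genes tested in both. Wnt16 and Wnt9a were called in WT alone and Sfrp5 in KO alone (16.7 against 12.5 CPM, log2 0.41, SE 0.11). In KO, Wnt10b had 99.9, 89.5 and 96.7 CPM in mTEChi and 3.93, 4.27 and 4.73 CPM in mTEClo. Fzd2 had 8.92, 9.15 and 8.06 CPM against 144, 125 and 165 CPM. The difference between the genotypes' medullary contrasts was tested for all 44 genes, and edgeR called 0 (6 at an unadjusted p under 0.05, 0 by DESeq2 and 0 by limma voom; 0.0101% of all genes were called).

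**Figure D3:**
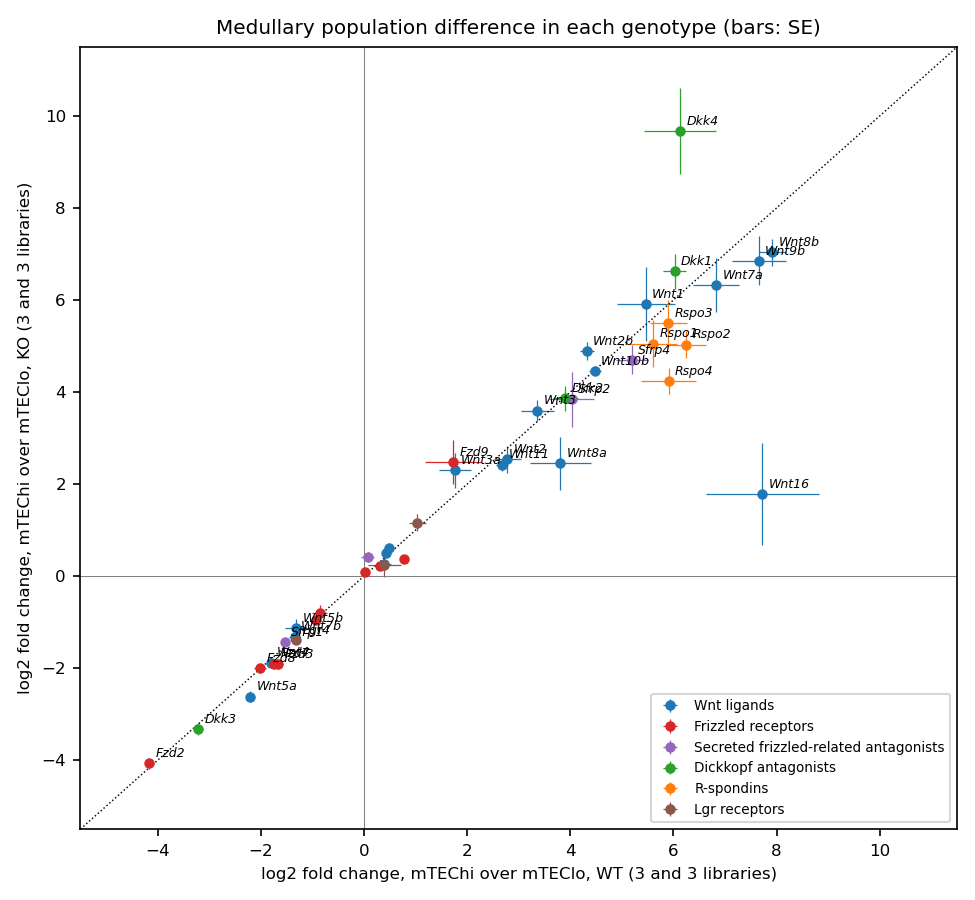
log2 fold change of mTEChi over mTEClo in WT (horizontal axis) and in KO (vertical axis) for the 44 genes, coloured by role, with SE bars and the line of equal values. Most points lie near the line; Wnt16, with no count in WT mTEClo, and Dkk4, with none in KO mTEClo, lie off it, and their fitted values depend on how zeros are handled.

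Markers of some other cell types moved with this contrast, in which 43% of all genes were called higher and 37.9% lower. The 11 dendritic cell and macrophage markers in the table summed to 554 to 572 CPM in WT mTEChi and to 70.5 to 73.8 CPM in WT mTEClo, and all 11 were called higher. The 6 B cell markers summed to 44.7 to 46.4 CPM against 12.8 to 16.3 CPM, again with 6 of 6 higher. The 8 thymic tuft cell markers summed to 392 to 533 CPM in WT mTEChi and to 2355 to 2467 CPM in WT mTEClo, with 8 of 8 lower. Ptprc, which encodes the CD45 that the sort excludes, had a lower mean in WT mTEChi (18.0 CPM) than in WT mTEClo (26.3 CPM). Ptprc belongs to the list of 16 thymocyte markers, of which 7 were called higher in WT mTEChi and 2 lower (median log2 0.51). The higher share of this list was near that of all genes. The part of these cell types in the Wnt gene differences was not tested, and in bulk libraries fewer cells of a type and less RNA per cell cannot be told apart.

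The bases before the start sites of these genes were read from RefSeq (GRCm38.p6), which had an entry at the deposited start of 28 of the 44 genes. Shown are the 250 bases upstream of 2 genes higher in mTEChi, Wnt10b and Wnt8b, and of 2 genes lower there, Fzd7 and Lgr4, written in the direction of the gene with each CpG dinucleotide in capitals. Wnt10b lies at chr15:98778151-98778400 on the minus strand, and the other 3 on the plus strand, Wnt8b at chr19:44493222-44493471, Fzd7 at chr1:59481897-59482146 and Lgr4 at chr2:109917397-109917646.
Wnt10b: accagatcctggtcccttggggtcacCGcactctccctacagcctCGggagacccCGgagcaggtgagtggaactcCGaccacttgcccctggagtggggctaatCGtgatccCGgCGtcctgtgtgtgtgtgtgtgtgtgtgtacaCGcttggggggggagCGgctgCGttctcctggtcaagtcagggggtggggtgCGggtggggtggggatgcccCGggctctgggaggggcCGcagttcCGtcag
Wnt8b: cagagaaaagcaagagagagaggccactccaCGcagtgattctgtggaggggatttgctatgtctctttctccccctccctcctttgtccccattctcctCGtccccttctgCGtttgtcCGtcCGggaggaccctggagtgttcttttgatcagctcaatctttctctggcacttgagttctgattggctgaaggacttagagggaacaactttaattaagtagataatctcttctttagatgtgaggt
Fzd7: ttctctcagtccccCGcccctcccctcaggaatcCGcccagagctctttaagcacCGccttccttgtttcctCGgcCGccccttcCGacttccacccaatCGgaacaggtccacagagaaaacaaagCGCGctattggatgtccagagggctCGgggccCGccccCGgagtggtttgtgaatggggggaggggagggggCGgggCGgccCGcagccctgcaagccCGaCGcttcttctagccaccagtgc
Lgr4: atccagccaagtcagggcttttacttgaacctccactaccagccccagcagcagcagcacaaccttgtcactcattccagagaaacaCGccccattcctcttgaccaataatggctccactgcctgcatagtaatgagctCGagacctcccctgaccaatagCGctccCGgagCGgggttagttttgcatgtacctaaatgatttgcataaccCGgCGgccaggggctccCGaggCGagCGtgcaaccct
These stretches held 14 CpG before Wnt10b, 5 before Wnt8b, 17 before Fzd7 and 10 before Lgr4. The 32851 RefSeq promoters of the same length had a median of 6 (quartiles 2 and 16). Over all matched genes the median was 21 for the 20 that were higher in WT mTEChi (range 5 to 48) and 30 for the 6 that were lower (range 10 to 44). The heptamers CTTTGAT and CTTTGTT, forms of the Tcf and Lef recognition sequence, were searched on both strands. Fzd7, with CTTTGTT in reverse 130 bases before its start, and Dkk1 were the 2 of 28 genes that held a match, beside 8.06% of all promoters. A match describes these letters and is not a binding site.

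Against WT mTEClo, WT cTEC showed changes in both directions. Of 36 genes tested, 14 were higher in cTEC and 10 lower (edgeR), beside 20.9% and 24.1% of all genes. The 8 genes not tested for low counts were Wnt1, Wnt7a, Wnt8a, Wnt16, Dkk4, Rspo2, Rspo3 and Rspo4. The median log2 difference was 0.01 over the 36 genes and -0.02 over all genes tested. This comparison and that of cTEC with mTEChi share libraries with the medullary one, so they are not independent of it.

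Among the ligands, 7 were higher in WT cTEC (Wnt2, Wnt3a, Wnt4, Wnt5b, Wnt6, Wnt7b and Wnt9a) and 4 lower (Wnt5a, Wnt10a, Wnt10b and Wnt11). Wnt6 had 43.2 and 38.1 CPM in WT cTEC against 8.89, 9.55 and 9.13 CPM in WT mTEClo (log2 2.13, SE 0.10, adjusted p = 1.97e-06 by edgeR). It was the ligand with the smallest p-value, and its cTEC values were also above every mTEChi library. Wnt9a had 19.3 and 15.9 CPM against 5.61, 5.51 and 4.81 CPM, 3.29-fold higher, and its neighbour Wnt3a 4.17 and 4.07 CPM against 0.440, 0.546 and 0.459 CPM. Wnt4 had 370 and 334 CPM, 1.5-fold above mTEClo, and Wnt7b 60.6 and 51.3 CPM, 1.72-fold above. Wnt10a had 18.0 and 17.8 CPM against 43.3, 44.3 and 38.8 CPM, 2.38-fold lower in cTEC, and Wnt5a 20.9 and 15.7 CPM, 1.62-fold lower. Wnt10b was 4.78-fold lower (0.899 against 4.27 CPM). The call of Wnt11 (1.98 against 3.34 CPM, adjusted p = 0.0392 by edgeR) was lost in limma voom (adjusted p = 0.120). Wnt5b and Wnt11 were also not called without any 1 of the mTEClo WT libraries.

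Of the 10 Fzd receptors, 4 were higher in WT cTEC. Fzd3 had 108 and 90.7 CPM in WT cTEC against 38.1, 38.0 and 44.2 CPM in WT mTEClo (log2 1.30, SE 0.10), with no overlap. Fzd5 (49.5 against 36.1 CPM), Fzd6 (138 against 114 CPM) and Fzd8 (54.0 against 35.1 CPM) were higher by 1.36-fold, 1.2-fold and 1.53-fold. Fzd2 had 95.2 and 79.3 CPM, 1.72-fold lower than in mTEClo, and Fzd10 was 1.37-fold lower. The call of Fzd6 was lost without mTEClo WT replicate 1, and that of Fzd5 in the fit of all 16 libraries. Fzd7 stood at 226 and 242 CPM (log2 -0.11, SE 0.08), which did not pass the test.

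Of the Lgr receptors, Lgr4 was 1.27-fold higher in WT cTEC (292 and 249 CPM) and Lgr6 was 15.4-fold lower (0.183 against 2.82 CPM). Lgr5 was also called lower (0.333 against 1.13 CPM), but not in limma voom (adjusted p = 0.0957) nor without any 1 of the mTEClo WT libraries. Rspo1 was the R-spondin with enough counts to test and did not pass (0.292 and 0.0838 CPM). Rspo4 had no count in any of the 4 cTEC libraries.

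Sfrp5 gave the largest fold of the antagonists, with 0.504 and 0.276 CPM in WT cTEC against 16.6, 12.6 and 14.2 CPM in WT mTEClo (37.3-fold lower, log2 -5.22, SE 0.30). Sfrp1 had 538 and 438 CPM in WT cTEC, 1.57-fold lower than in mTEClo. Dkk3 had 62.4 and 61.9 CPM, 1.28-fold higher, a call that the fit of all 16 libraries lost. Sfrp4 was 13.5-fold higher at low level (1.43 against 0.104 CPM). Dkk1 and Dkk2 did not pass, at 0.0973 and 0.453 CPM in WT cTEC. Fibroblast and pericyte markers summed to 1056 to 1314 CPM in WT cTEC and to 575 to 644 CPM in WT mTEClo, with 7 of 12 called higher and 2 lower. The tuft cell markers summed to 405 to 476 CPM against 2355 to 2467 CPM, with 8 of 8 lower. Thymocyte markers summed to 162 to 216 CPM against 108 to 151 CPM, with 6 of 16 higher and 0 lower. The part of these cell types in the differences was not tested.

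WT cTEC and WT mTEChi differed in 40 of the 44 genes. Of 44 genes tested, 17 were higher in cTEC and 23 lower (edgeR), beside 30.8% and 43.5% of all genes, and the 4 others were Wnt2, Wnt16, Fzd6 and Fzd9. The median log2 difference was -1.62 over the 44 genes and -0.24 over all genes tested. Wnt1 (0 counts against 606) and Rspo4 (0 against 1226) were at least 114-fold and at least 231-fold lower in WT cTEC, with 3 counts summed over its libraries taken as the floor. Among genes higher in cTEC, Dkk3 differed by 11.4-fold (62.1 against 5.25 CPM), Fzd2 by 9.94-fold (87.2 against 8.42 CPM), Fzd3 by 7.47-fold (99.4 against 12.7 CPM), Fzd8 by 5.88-fold (54.0 against 8.81 CPM) and Wnt4 by 5.0-fold (352 against 67.5 CPM). Among genes lower in cTEC, Wnt10b differed by 112-fold (0.899 against 96.5 CPM), Wnt2b by 53.3-fold (0.413 against 21.1 CPM), Dkk2 by 39.1-fold (0.453 against 17.0 CPM) and Wnt11 by 11.4-fold (1.98 against 21.6 CPM). With library totals in place of TMM scaling the median of all genes in that comparison of scalings moved from -0.26 to -0.43, and Fzd4, Fzd5 and Fzd10 were no longer called. The 11 dendritic cell and macrophage markers summed to 41.1 to 76.9 CPM in WT cTEC and to 554 to 572 CPM in WT mTEChi, with 0 higher and 9 lower. The 6 B cell markers summed to 2.70 to 5.13 CPM against 44.7 to 46.4 CPM, with 5 lower, and the part of these cells in the differences was not tested.

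In KO, cTEC and mTEChi differed in 27 of 44 genes (11 higher, 16 lower), beside 20.7% and 26% of all genes. Limma voom called 11 higher and 12 lower, and 8 of the 16 lower calls were shared. A fit with a term for the replicate number called 9 higher and 1 lower, beside 13% of all genes. Leaving out 1 library gave 20 to 39 calls. Of the 44, 26 were called in the same direction in both genotypes and 0 in opposite directions, beside 42.5% of all genes tested in both. KO cTEC against KO mTEClo called 1 of 42 genes, Fzd3, which had 89.6 and 104 CPM in KO cTEC against 41.2, 53.7 and 42.3 CPM in KO mTEClo (log2 1.07, SE 0.15, adjusted p = 0.0176 by edgeR). The background was 3.32% higher and 2.87% lower. This count rests on the 2 KO cTEC libraries, which differed from each other: it was 23 without cTEC KO replicate 1, where 55.5% of all genes were called, and 19 without cTEC KO replicate 2, where 23.3% were. It was 0 without mTEClo KO replicate 1 or 3, where 0.295% and 0.0177% of all genes were called.

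There are 4 pairs of Wnt genes that lie within 25 kb of each other, and their levels can be set side by side (coordinates in mm10). Wnt10b (chr15:98771752-98778150, minus strand) and Wnt1 (chr15:98789857-98793830, plus strand) point away from each other with 11.7 kb between them, and both were higher in WT mTEChi than in WT mTEClo. Wnt9b (chr11:103727363-103749821, minus) and Wnt3 (chr11:103774175-103818021, plus) lie 24.4 kb apart in the same arrangement, and both were again higher in WT mTEChi than in WT mTEClo. Wnt3a (chr11:59248042-59290751, minus) and Wnt9a (chr11:59306930-59333552, plus) lie 16.2 kb apart, and both were higher than in WT mTEClo in WT mTEChi and in WT cTEC alike. Wnt6 (chr1:74771892-74785319) and Wnt10a (chr1:74792019-74804175) lie on the plus strand 6.7 kb apart, and both were higher in WT mTEChi than in WT mTEClo, whereas in WT cTEC against WT mTEClo Wnt6 was higher and Wnt10a lower. Of all 19 ligands, 15 were higher in WT mTEChi than in WT mTEClo, which is the background for such pairs.

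None of the 44 genes passed the threshold between KO and WT in any population. In mTEChi, 0 of 44 genes were called (edgeR; 0 by DESeq2 and by limma voom), beside 0.0051% of all genes, and 2 had an unadjusted p under 0.05, Wnt8a and Dkk3. Non-overlapping KO and WT values were seen in 1 gene, beside 8.99% of all genes. Among the genes with a mean of at least 5 CPM in any group of any population, the log2 difference ran from -0.25 (Wnt5a) to 0.34 (Wnt5b). Wnt5b reached that level in WT cTEC alone and stood at 1.86 CPM in KO and 1.47 CPM in WT mTEChi. Wnt10b had 99.9, 89.5 and 96.7 CPM in KO and 93.2, 98.6 and 97.6 CPM in WT mTEChi (log2 -0.03, SE 0.07), with the groups overlapping.

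In mTEClo, 0 of 38 genes were called by edgeR and by limma voom, beside 0.00586% of all genes, and DESeq2 called Dkk3. Dkk3 had 57.7, 77.2 and 57.9 CPM in KO and 47.0, 48.7 and 48.8 CPM in WT (log2 0.41, SE 0.11, adjusted p = 0.221 by edgeR). All 3 KO values were above the WT values, and 1 of them stood apart from the other two. Fzd1 had 52.9, 65.8 and 62.6 CPM against 49.0, 51.3 and 42.9 CPM (log2 0.33, SE 0.10, adjusted p = 0.250 by edgeR). These were the 2 genes with an unadjusted p under 0.05. Groups did not overlap in 6 of the 44 genes, tested or not (5 higher, 1 lower in KO), beside 19.2% of all genes tested.

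In cTEC, 0 of 38 genes were called (edgeR), beside 0% of all 16423 genes tested. Psmb11 itself was tested and not called in cTEC, so a gene without a call here cannot be taken as unchanged. With 2 libraries a group, KO and WT values did not overlap in 20 of the 44 genes, tested or not (10 in each direction), beside 45.6% of all genes tested. Wnt6 had 23.3 and 11.6 CPM in KO and 43.2 and 38.1 CPM in WT (log2 -1.21, SE 0.36, adjusted p = 0.257 by edgeR, adjusted p = 0.0368 by limma voom with a variance per group). Wnt11 had 10.1 and 6.5 CPM in KO and 1.90 and 2.06 CPM in WT (log2 2.08, SE 0.64, adjusted p = 0.272 by edgeR). These 2 genes had an unadjusted p under 0.05, and in both every KO library lay on the same side of the WT libraries. DESeq2 called Wnt11, and the fit of all 16 libraries with a shared dispersion called 9 genes, 7 higher and 2 lower, beside 23.4% of all genes in that fit. Without cTEC KO replicate 1, edgeR called 3 genes (Wnt6, Dkk2 and Fzd5), beside 20.9% of all genes. Without cTEC KO replicate 2 it called 4 (Wnt6, Wnt11, Wnt2b and Sfrp5), beside 6.14% of all genes.

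The 2 KO cTEC libraries disagreed in several members. Sfrp5 had 5.29 CPM in replicate 1 and 0 in replicate 2, Lgr5 had 2.22 and 0.0154 CPM, Rspo1 2.49 and 0 CPM, and Wnt2b 4.79 and 0.200 CPM. Lgr6 went the other way with 0.161 and 1.63 CPM, and Wnt2 with 1.00 and 6.94 CPM. The biological coefficient of variation of the fit was 0.652 in cTEC, against 0.131 in mTEClo and 0.113 in mTEChi. The median log2 difference of KO over WT in cTEC was 1.47 for Sfrp, 2.62 for Dkk, 1.17 for R-spondin and 1.77 for Lgr genes. It was 0.12 for the ligands and -0.03 for the Fzd receptors. The first 4 medians rest on few tested genes (4 Sfrp, 3 Dkk, 2 R-spondins and 3 Lgr), and none was called. For R-spondins the median of KO over WT was also above 0 in mTEClo (1.29 over 3 tested genes, 0 called). Wnt10b, Dkk1 and Wnt9b, picked here because the KO effect differed from that in mTEChi, had 2.20 and 2.17, 0.803 and 1.48, and 2.09 and 1.26 CPM in KO cTEC, against no more than 1.22, 0.172 and 0.390 CPM in WT cTEC. Wnt3 (0.0803 in KO against 0.247 CPM in WT) and Sfrp4 (0.655 against 1.43 CPM) had lower KO means, and Rspo4 was at 0 in both. The Wnt3 libraries overlapped between genotypes (0 and 0.161 CPM in KO, 0.0801 and 0.413 CPM in WT). In the same libraries the cortical markers summed to 4487 to 6136 CPM in KO against 7068 to 8235 CPM in WT. The tuft cell markers summed to 901 to 1230 CPM against 405 to 476 CPM, and Aire was higher as given above. The medullary markers summed to 4367 to 4718 CPM against 3902 to 4247 CPM. Their median log2 difference was 0.97 over 11 tested genes, with 0 called. The part of the purity of these libraries in the Wnt gene values was not tested.

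**Figure D4:**
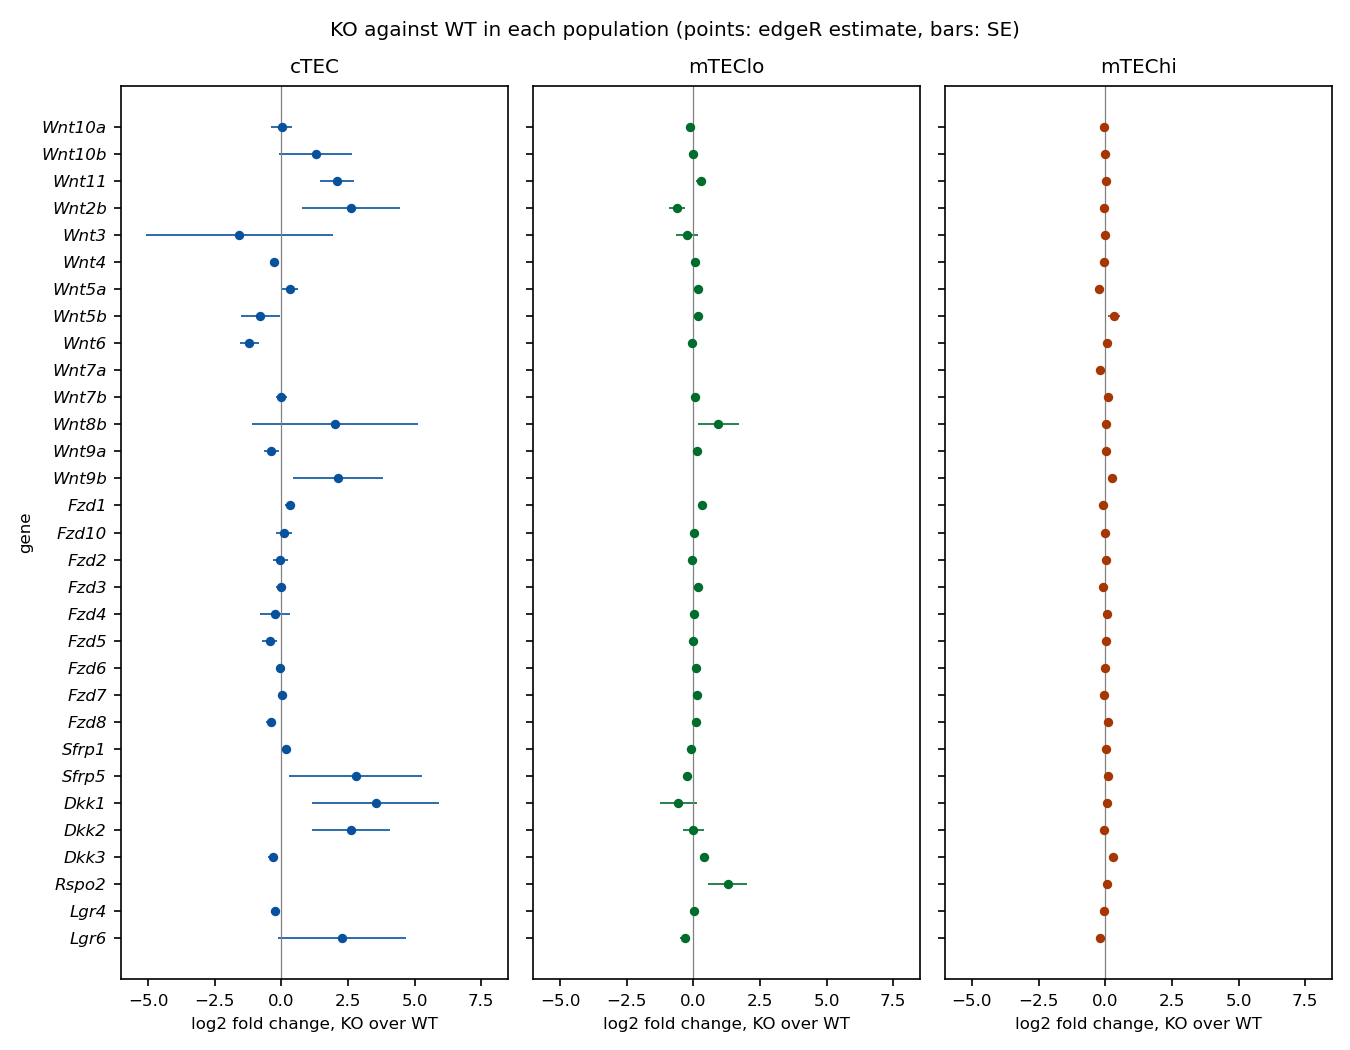
log2 fold change of KO over WT (horizontal axis; points are edgeR estimates, bars are SE) in cTEC, mTEClo and mTEChi for the 31 genes with a mean of at least 5 CPM in at least 1 group (vertical axis); Wnt7a, Wnt9b and Rspo2 were not tested in every population. Most estimates lie near 0 with short bars in mTEChi and mTEClo, whereas those in cTEC spread from -1.58 (Wnt3) to 3.54 (Dkk1) with long bars.

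Whether the KO effect differed between populations was tested directly. Between cTEC and mTEClo, edgeR called 0 of 43 genes (9 at an unadjusted p under 0.05, 4 called by DESeq2 and 0 by limma voom), beside 4.68% of all genes. This count was 16 without cTEC KO replicate 1, beside 35.8% of all genes, and 8 without cTEC KO replicate 2, beside 16.9%. Between cTEC and mTEChi it called 5 of 44, all with a higher KO effect in cTEC (Wnt1, Wnt9b, Wnt10b, Wnt11 and Dkk1), beside 5.35% of all genes. None of these 5 was called by limma voom, which called Wnt6 alone, and the count was 2 without any 1 of the mTEChi libraries, beside 2.47% to 3.14% of all genes. It was 21 without cTEC KO replicate 1 and 17 without cTEC KO replicate 2, beside 34.2% and 21.3% of all genes. Of the 12 genes called in both of these fits, 5 were lower in the first and higher in the second (Sfrp5, Lgr5, Rspo1, Wnt8b and Wnt10a), so their direction rests on which KO cTEC library is used.

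Further genes of the pathway were examined as lists in the same fits. The list of beta-catenin targets also holds Dkk1, Dkk4 and Lgr5, which are described above. Some genes, such as Axin2, Tcf7 and Notum, stand in several lists, so the lists are not separate from each other. Between WT mTEChi and WT mTEClo, the intracellular and receptor lists were mostly lower in mTEChi, where 37.9% of all genes were called lower and 43% higher. Of 11 coreceptors and alternative receptors, 9 were lower and 2 higher (median log2 -1.37, against 0.06 over all genes), among them the polarity receptor Ptk7 (35.3 against 193 CPM, log2 -2.47) and Lrp5 (51.2 against 138 CPM, log2 -1.44), with Lrp6 at 177 against 249 CPM. Of 18 members of the beta-catenin destruction complex and dishevelled proteins, 16 were lower and 0 higher (median -0.53), with Ctnnb1, which encodes beta-catenin, at 688 against 932 CPM and the scaffold Axin1 at 50.5 against 91.2 CPM. With library totals as the scaling this last list gave 13 lower and 1 higher. Of 16 nuclear effectors, 10 were lower and 2 higher (median -0.56). The exception with the smallest p-value was Tcf7, a Tcf factor that is also abundant in thymocytes, at 91.1 against 16.1 CPM (log2 2.48, SE 0.16). Thymocyte markers summed to 170 to 254 CPM in WT mTEChi and to 108 to 151 CPM in WT mTEClo, with 7 of 16 higher and 2 lower, and their part in the Tcf7 value was not tested.

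Genes that beta-catenin is known to induce did not move as 1 block, with 8 of 20 higher and 7 lower in WT mTEChi. Dkk1 and Notum, a secreted enzyme that inactivates Wnts (4.15 against 0.153 CPM), were higher, whereas Jag1 (87.4 against 262 CPM) and Rnf43 (59.2 against 126 CPM) were lower. Axin2, the target most widely used as a readout, did not pass the test. The secretion list gave 4 higher and 4 lower of 9, with the Wnt carrier Wls at 127 against 358 CPM and the acyltransferase Porcn at 3.32 against 15.1 CPM. Further inhibitors gave 7 higher and 8 lower of 15, with Igfbp4 at 48.5 against 705 CPM and Sost at 15.2 against 0.218 CPM. The planar cell polarity list gave 5 higher and 8 lower of 15, with Daam2 at 34.4 against 4.86 CPM and Vangl2 at 10.6 against 27.8 CPM.

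Between WT cTEC and WT mTEClo fewer genes of most of these lists were called, as for all genes (20.9% higher and 24.1% lower). Of 9 secretion genes, 5 were higher in cTEC and 1 lower, with Wls at 651 against 358 CPM. Of the 11 coreceptors, 5 were higher and 1 lower, with Lrp6 at 439 against 249 CPM and Lrp5 at 97.6 against 138 CPM. The target list gave 6 higher and 5 lower of 18, led by Tnfrsf19 (55.5 against 8.35 CPM, log2 2.72, SE 0.09) and the Wnt feedback inhibitor Nkd1 (25 against 8.03 CPM). The polarity list gave 2 higher and 7 lower of 15, with Celsr3 at 1.26 against 13.7 CPM. The destruction complex gave 4 higher and 2 lower of 18, the nuclear effectors 4 higher and 5 lower of 16, and the further inhibitors 2 higher and 4 lower of 14. No gene of these 7 lists was called between KO and WT by edgeR in any population.

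Exons of 7 of the 44 genes overlap another annotated gene (Wnt5a, Wnt7b, Wnt11, Fzd5, Fzd6, Sfrp2 and Rspo3), by up to 17.8% of the exonic length in Fzd5, and in libraries that do not mark strand the reads of such partners cannot be told apart.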

How the data were processed

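RNA of sorted thymic epithelial cells from 16 libraries was measured by sequencing on the HiSeq2000 with unstranded TruSeq v2 libraries, per the labels' protocols. The authors deposited raw counts per gene and RPKM values in separate tables. The submitters' processing notes name CASAVA 1.8.2, HTSeq 0.5.4p1 and the build mm10; the aligner is not given in the sources used here. Reads in no gene (13.7% to 30.4% of each library, highest in cTEC KO replicate 1) and ambiguous reads (0.541% to 0.887%) were left out, and the 2 duplicated symbols were kept as separate genes.

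Counts were scaled by TMM and tested gene by gene with edgeR 4.0.16 (quasi-likelihood, filterByExpr) in R 4.3.3, each comparison on the libraries of its own groups, because KO cTEC libraries spread more than the others. P-values were adjusted over all genes tested (Benjamini-Hochberg) with a threshold of 0.05. Alternatives were RLE scaling, library totals, no low-count filter, DESeq2 1.42.0, limma 3.58.1 voom with a variance per group, 1 fit of all 16 libraries, a replicate block and leaving out each library; library totals were chosen after seeing the data. The scripts were tested on simulated data. Deposited RPKM was used for levels between genes only. The RefSeq promoter table (GRCm38.p6) matched 29 of the 44 genes, and exon overlaps came from GENCODE.

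The members and all gene lists were chosen with earlier results of these data known. Of the 44 genes, those named by rule were the called ones whose higher group averaged 5 CPM or more (at most 12 per comparison, by p-value), the 5 of highest RPKM per population, and up to 4 called members of each pathway list by p-value; further genes named with values were chosen after their values were seen.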

Additional observations from a re-analysis of the deposited data

Results flagged for a closer look

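For 5 genes the KO effect differed between cTEC and mTEChi by a test of the difference itself (edgeR, adjusted over all genes). The log2 effect in cTEC exceeded that in mTEChi by 1.30 for Wnt10b, by 2.03 for Wnt11, by 1.85 for Wnt9b, by 3.47 for Dkk1 and by 7.02 for Wnt1. Wnt1 had no count in either WT cTEC library, so its value depends on how zeros are handled and is no bound. The share of calls, 5 of 44, lies beside 5.35% of all genes. None of the 5 was called by limma voom with a variance per group, and Wnt1 and Wnt11 were the 2 that were called without any 1 of the mTEChi libraries. In KO cTEC, Aire was at 48.4 and 107 CPM, against 11.2 and 14 CPM in WT cTEC; its part in these differences was not tested.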

How the results depend on the processing

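No gene that was called in a comparison as reported changed direction under any alternative run. Among genes not called there, some took opposite directions without cTEC KO replicate 1 and without cTEC KO replicate 2: Sfrp5, Lgr5, Rspo1, Wnt8b and Wnt10a for the cTEC and mTEChi difference of KO effects, Sfrp5, Lgr5 and Wnt10a for the cTEC and mTEClo one, Wnt6 for KO cTEC against KO mTEChi and Wnt2b for KO cTEC against KO mTEClo. Counts of called genes that moved by more than 1.5 times all involve cTEC, apart from mTEClo KO against WT, where DESeq2 called 1 in place of 0; the cause was not tested. For cTEC KO against WT (0 called) DESeq2 called 1, voom 1, the replicate block 1 and the fit of all 16 libraries 9. For KO cTEC against KO mTEClo (1) DESeq2 called 10, the 16-library fit 20, voom 3, the replicate block 3 and library totals 3. For KO cTEC against KO mTEChi (27) the replicate block called 10. For the difference of KO effects between cTEC and mTEClo (0) DESeq2 called 4 and the 16-library fit 6, and for that between cTEC and mTEChi (5) no low-count filter gave 3, DESeq2 9, voom 1 and the replicate block 1. Leaving out 1 library at a time gave 0 to 4 calls for cTEC KO against WT, 0 to 23 for KO cTEC against KO mTEClo, 20 to 39 for KO cTEC against KO mTEChi, 20 to 29 for WT cTEC against WT mTEClo, 38 to 43 for WT cTEC against WT mTEChi and 40 to 41 for mTEChi against mTEClo in each genotype. It gave 0 to 16 for the cTEC and mTEClo difference of effects, 2 to 21 for the cTEC and mTEChi one, and 0 in each other KO comparison. Same-numbered KO and WT libraries deviated together with correlations of -0.014 to 0.062. Values this small give no clear sign that the numbers pair the samples, but they cannot exclude it. In cTEC the same-number and other values (0.062 and -0.062) mirror each other by construction, as each group has 2 libraries. For cTEC KO against WT the replicate block called 4.37% of all genes, where the fit without it called 0%. With 2 cTEC libraries a group, leaving out 1 leaves a lone sample that is assumed to vary like the other groups. Genes near 3 counts a library, at most 0.0461 CPM, are limited by depth.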
